A study of Mus musculus with 2 samples.

Results

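The Slc25 family of mitochondrial carriers was followed in mouse embryonic stem cells (mESCs) with and without Setd2. Setd2 encodes the enzyme that places the trimethyl mark on lysine 36 of histone H3 over transcribed genes. Members were all rows of the expression table whose gene symbol starts with Slc25a, which gave 44 genes of 17827 rows. They lie on 19 chromosomes. The study compared 1 library of wild type cells with 1 library of Setd2 KO cells. Both lines were of strain 129SV/C57BL/6 and passage 10 to 12, received no treatment, and had been separated from their feeder cells on gelatin before collection. The method of disruption and the number of clones were not given in the sources used here. Neither genotype had a replicate, so each difference below describes these 2 libraries, and no p-value was computed.

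Slc25 carriers are proteins of the mitochondrial inner membrane, with a few exceptions in peroxisomes and in the outer membrane. Each is built from repeats of a pair of membrane-spanning helices around a central binding site, and most swap a metabolite of the matrix for one of the cytosol. They link glycolysis, amino acid use, nucleotide supply and iron handling in the cytosol to the enzymes inside the mitochondrion. Dividing cells also depend on such exchange for the citrate and aspartate used in lipid and nucleotide synthesis.

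Levels are given in CPM, the share of a library in parts per 1000000 of its read equivalents, where 1 read equivalent is 76 sequenced bases over a gene. The wild-type library held 56129838 read equivalents and the Setd2 KO library 52041677. Ratios are the CPM of the Setd2 KO library over that of the wild-type library, with an exact binomial interval of 95%. Such an interval speaks to counting error alone, as each genotype has 1 library. It may be too narrow even for that, since sequenced copies of a fragment are not separate molecules when no molecular identifiers are used. Setd2 itself was at 452 CPM in wild type and 174 CPM in Setd2 KO. Of 9 stem cell marker genes compared, 7 had a lower CPM in Setd2 KO, 2 of them by at least 1.5-fold. Among all genes averaging at least 1 CPM, 43.6% were lower, and 6.77% were lower by at least 1.5-fold. Pou5f1 (558 and 544 CPM) and Sox2 (458 and 417 CPM) were close in both libraries. Zfp42, on chromosome 8, with 55% of its windows of 76 bases also matching elsewhere in the genome or not mapping back, stood at 283 and 68.1 CPM, a ratio of 24.1%. Utf1 had a ratio of 58.3%, Esrrb one of 77.1% and Nanog one of 140%. Their part in the carrier differences was not tested.

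The family as a whole took nearly the same share of both libraries, while a few carriers stood apart. The 44 genes together made up 0.196% of the wild-type library (interval 0.195 to 0.197%) and 0.197% of the Setd2 KO library (interval 0.196 to 0.199%). Of the 44, 37 averaged 1 CPM or more across the libraries and were compared by fold. Folds are on the scale of log2(CPM + 0.5), which understates those of low genes. One carrier gene was at least 2-fold lower in the Setd2 KO library (1 of 37, against 2.11% of all 13523 genes compared). It was Slc25a28, which imports iron. With 0.1 CPM added in place of 0.5, or after any of 3 rescalings of the libraries, the count was 2, Slc25a34 being the other. None was at least 2-fold higher (0 of 37, against 1.76% of all genes), and with 0.1 CPM added 1 was, Slc25a27. Taking both directions, that is 1 of 37 carriers against 3.87% of all genes. At 1.5-fold, 5 of 37 carriers were lower, against 6.77% of all genes. They were Slc25a28, Slc25a34, Slc25a37, Slc25a15 and Slc25a12. At the same threshold 3 of 37 were higher, against 7.42% of all genes. They were Slc25a27, Slc25a24 and Slc25a23. At the background shares for 2-fold, fewer than 1 gene in 37 would be counted on each side, so the 2-fold counts are near the background. At 1.5-fold the share in either direction was 21.6% of the carriers, against 14.2% of all genes.

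The median log2 fold of the 37 carriers was -0.09, with quartiles of -0.26 and 0.28. That of all genes was 0.05, with quartiles of -0.20 and 0.28. Below 0 were 22 carriers, or 59.5%, against 43.6% of all genes, and above 0 were 15. The counting interval of the ratio lay below 1 for 15 carriers, above 1 for 14 and held 1 for 8. Among all genes compared the interval held 1 for only 26.8%, so an interval that misses 1 was the common case at this depth.

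**Figure D1:**
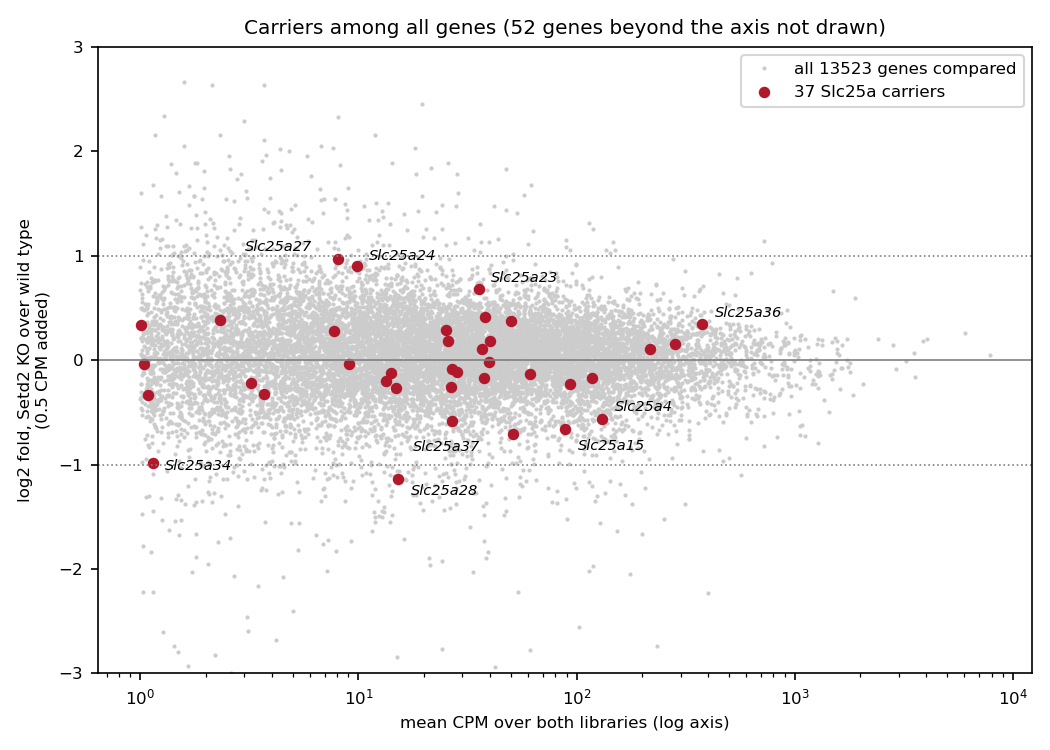
Log2 fold of Setd2 KO over wild type (y axis, 0.5 CPM added) against the mean CPM of both libraries (x axis, log scale). Grey points are all 13523 genes compared and red points the 37 carriers; 52 genes beyond the y axis are not drawn. The carriers lie within the cloud of all genes, with Slc25a28 alone below the lower dotted line at 2-fold.

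Between genes, levels were compared per kb of exon, taken from the GENCODE annotation, in which all 44 members had a gene model. The most abundant transcript per kb was Slc25a5, which encodes an ADP/ATP carrier, at 127 CPM per kb in wild type and 137 in Setd2 KO. In the wild-type library Slc25a4, the other common ADP/ATP carrier, followed at 66.3 CPM per kb. Next came the pyrimidine nucleotide carrier Slc25a36 at 48.6 and the phosphate carrier Slc25a3 at 48.1 CPM per kb. These neighbours differed from each other by less than either did between the libraries. The aspartate/glutamate carrier Slc25a13 (39.9 CPM per kb), the glutathione carrier Slc25a39 (36.5), the ornithine carrier Slc25a15 (31.6) and the peroxisomal carrier Slc25a17 (26.1) completed the top 8. Of these 8, 7 were also among the top 8 in the Setd2 KO library, where Slc25a20 (24.4 CPM per kb) stood in place of Slc25a15 (19.9). Slc25a4 moved from the second to the fourth place in that order, and Slc25a28 from place 15 to 22. The order depends on the length used. By the longest transcript, Slc25a36 (82.4 CPM per kb) was already above Slc25a4 (81.1) in the wild-type library.

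At the other end, 7 members stayed under a mean of 1 CPM. They were Slc25a41, Slc25a43, Slc25a47, Slc25a2, Slc25a18, Slc25a45 and Slc25a21. The oxodicarboxylate carrier Slc25a21 was lowest, with 1.00 read equivalent in the wild-type and 3.99 in the Setd2 KO library, a ratio of 4.30 whose interval ran from 0.427 to 212. Slc25a47, a carrier first described in liver, had 27.8 and 8.96 read equivalents, a ratio of 34.7% (14.4 to 75.6%). Its neighbour on chromosome 12, the basic amino acid carrier Slc25a29, was just over the floor at 1.05 and 1.02 CPM. No member was listed at 0. By CPM, 4 genes (Slc25a36, Slc25a3, Slc25a5 and Slc25a4) carried 49.2% of all carrier reads in wild type and 53.3% in Setd2 KO.

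**Figure D2:**
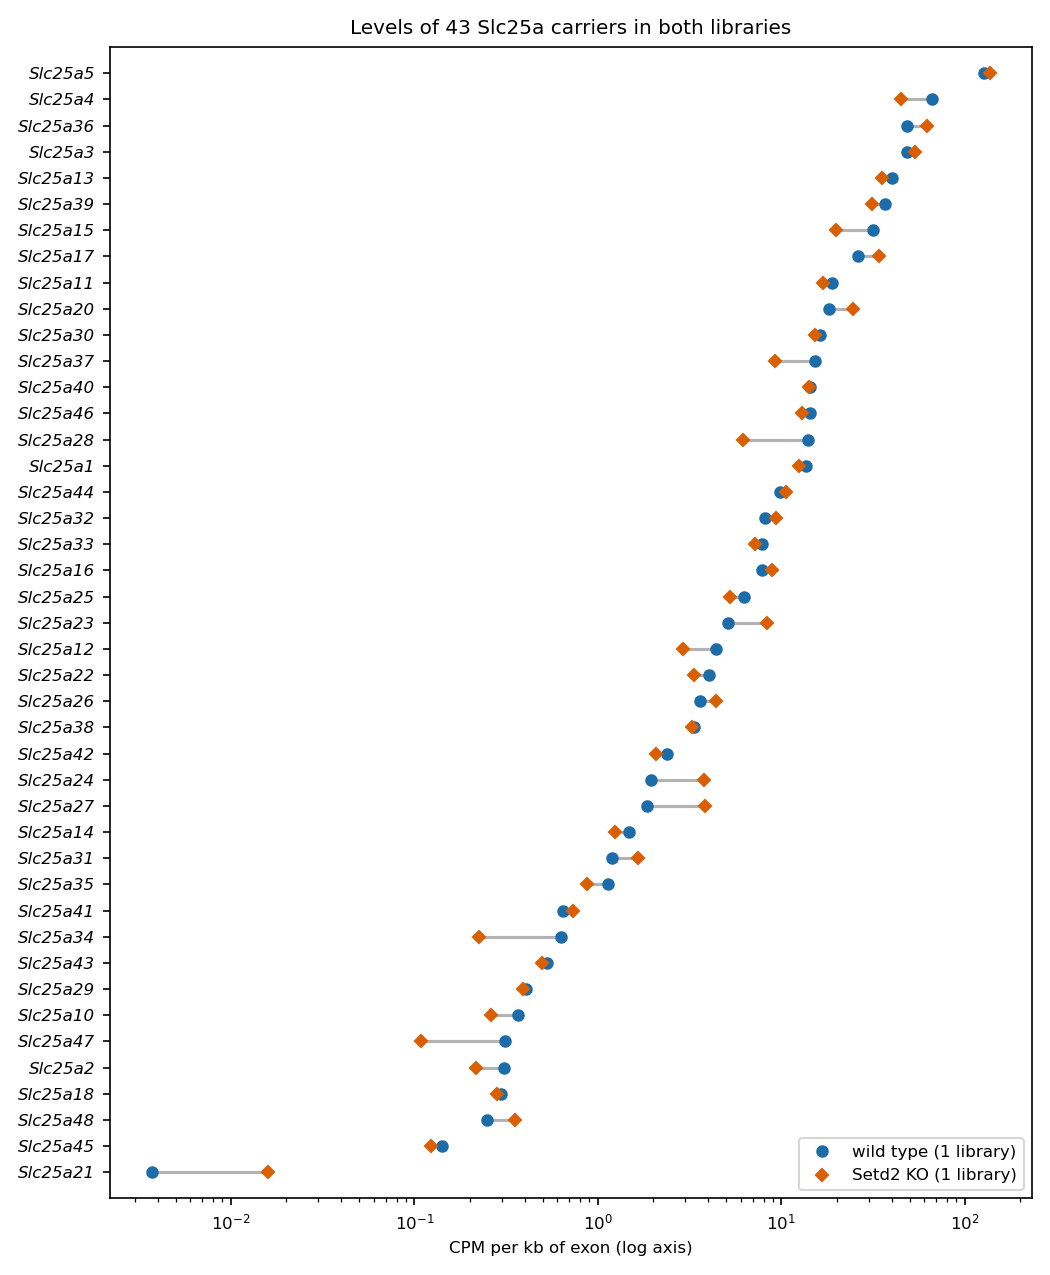
Level of 43 of the 44 carriers in CPM per kb of exon (x axis, log scale), ordered by the wild-type level; circles are the wild-type and diamonds the Setd2 KO library, with 1 library each. Most pairs of symbols nearly coincide, while those of Slc25a28, Slc25a37, Slc25a34, Slc25a24, Slc25a27 and Slc25a23 and, at the lowest levels, Slc25a47 and Slc25a21 are among the separated ones.

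The ADP/ATP carriers return newly made ATP to the cytosol, and sequence bears on how well their reads can be assigned. The 894 coding bases of Slc25a4 and Slc25a5 were 77.4% identical. Over all 819 stretches of 76 bases, the length of 1 read equivalent, they differed at 8 to 30 bases, with a median of 17. The stretch within a single coding exon with the fewest differences is given here, with the same stretch in 2 other rows of the table that resemble Slc25a5. It lies in coding exon 2 of both genes. The lines come from NCBIM37, the assembly behind mm9, at chrX:34336946-34337021 (plus strand), chr8:47294679-47294754 (minus), chr1:79919707-79919782 (minus) and chr5:97694066-97694141 (plus). Capitals mark the bases that differ from Slc25a5.
Slc25a5: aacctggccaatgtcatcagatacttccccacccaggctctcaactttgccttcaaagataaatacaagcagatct
Slc25a4: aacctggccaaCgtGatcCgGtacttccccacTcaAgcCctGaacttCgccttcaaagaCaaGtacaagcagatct
Gm5529: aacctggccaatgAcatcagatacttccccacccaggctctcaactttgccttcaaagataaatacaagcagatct
Gm5560: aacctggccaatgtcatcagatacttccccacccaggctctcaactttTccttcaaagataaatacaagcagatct

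Slc25a4 differed from Slc25a5 at 11 bases of this stretch, and Gm5529 and Gm5560 at 1 base each. Of 20 windows of 76 bases placed over the exons of Slc25a5, 65% were shared, meaning that they also matched elsewhere in the genome with at most 2 mismatches or did not map back to their origin. None of those of Slc25a4 were. Gm5529 (80.3 and 92.3 CPM) and Gm5560 (114 and 125 CPM) had sizable values of their own. The sources used here do not say how reads with several places were counted, so the level of Slc25a5 is uncertain. Slc25a40 was in the same position, with 50% of its windows shared, 6 of 20 with Gm5066. For 35 members no window was shared, and for the other 7 the share was at most 15%.

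Slc25a5 (X chromosome, 34335647 to 34338801, mm9) stood at 210 CPM in wild type and 226 CPM in Setd2 KO, a ratio of 1.08 (interval 1.05 to 1.10). Summed with Gm5529 and Gm5560, the levels were 404 and 443 CPM and the ratio 1.10 (1.08 to 1.12). Slc25a4 (chromosome 8, 47292698 to 47296363) stood at 156 and 105 CPM, a ratio of 67.6% (65.3 to 69.9%). Its log2 fold of -0.56 lay just short of the 1.5-fold threshold. Per kb, Slc25a5 was 1.92-fold above Slc25a4 in wild type and 3.06-fold above it in Setd2 KO. Slc25a31, the ADP/ATP carrier of germ cells, was far lower, at 1.94 and 2.69 CPM, with a ratio of 1.39 (1.07 to 1.80). The 3 carriers together were lower in Setd2 KO, at 334 against 368 CPM, a ratio of 90.8% (89.0 to 92.7%). The balance between the main pair thus stood further toward Slc25a5 in the Setd2 KO library, though the level of Slc25a5 is uncertain. Slc25a4 lies on chromosome 8, whose genes had a median log2 fold of -0.35. The part of this in the balance was not tested.

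The carriers of nucleotides, phosphate and nucleotide-derived cofactors were the one group with more members above 0 than below. Of 14 compared, 10 were above 0 and 4 below, or 28.6% below against 43.6% of all genes, with a median log2 fold of 0.19. Their sum was 1186 CPM in wild type and 1317 CPM in Setd2 KO. Slc25a36, which carries pyrimidine nucleotides, had the highest CPM of the family, 331 and 422, a ratio of 1.28 (1.25 to 1.30). Its paralog Slc25a33 stood at 14.8 and 13.6 CPM, a ratio of 0.917 (0.827 to 1.01). Slc25a3, which brings in the phosphate for ATP synthesis, stood at 267 and 298 CPM, a ratio of 1.12 (1.09 to 1.14). Slc25a36 and Slc25a3 were thus both higher in Setd2 KO, by less than 1.5-fold.

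Slc25a17 stood at 43.5 and 56.5 CPM, a ratio of 1.30 (1.23 to 1.37). The folate and flavin carrier Slc25a32 had a ratio of 1.14 (1.06 to 1.23). The 2 genes linked to coenzyme A transport lay on both sides of 1. Slc25a16 stood at 37.5 and 42.8 CPM and Slc25a42 at 14.3 and 12.4 CPM.

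The ATP-Mg/phosphate carriers, which adjust the adenine nucleotide pool of the matrix and mostly respond to calcium, held 2 of the 3 carriers at least 1.5-fold higher. Slc25a24 (chromosome 3, 108926067 to 108971327) stood at 6.68 CPM in wild type and 12.9 CPM in Setd2 KO, a ratio of 1.94 (1.71 to 2.21). Slc25a23 (chromosome 17, 57183135 to 57199286) stood at 27.2 and 44.1 CPM, a ratio of 1.62 (1.52 to 1.73). The third calcium-responsive member, Slc25a25, lay the other way, at 29.1 and 24.3 CPM, a ratio of 0.833 (0.773 to 0.897). Slc25a41, the short form without the calcium-binding part, was at 0.864 and 0.971 CPM. It lies next to Slc25a23, on chromosome 17 from 57172195 to 57181077. In sum the 4 genes stood at 63.9 and 82.3 CPM. Slc25a25 was the higher of the main pair per kb of exon in the wild-type library, with Slc25a23 at 0.817 of its level. In the Setd2 KO library Slc25a23 stood at 1.59 times the level of Slc25a25. By the length of the longest transcript these values were 0.981 and 1.91, so the pair was nearly level in wild type. Among the carriers compared, Slc25a24 and Slc25a23 ranked 2 and 3 by fold.

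Rank 1 belonged to Slc25a27, an uncoupling-protein relative best known from the brain. Slc25a27 (chromosome 17, 43778849 to 43803964) stood at 5.30 CPM in wild type and 10.9 CPM in Setd2 KO. The ratio was 2.05 (1.77 to 2.36), and with 0.5 CPM added the log2 fold was 0.97, just short of 2-fold. Its relatives in the family lay below 1. Slc25a30 stood at 27.6 and 26.0 CPM, a ratio of 0.941 (0.874 to 1.01). Slc25a14 on the X chromosome stood at 3.49 and 2.92 CPM, a ratio of 0.837 (0.672 to 1.04). The uncoupling protein gene Ucp2, which carries a symbol outside the rule, stood at 101 and 119 CPM, a ratio of 1.18 (1.14 to 1.23), and Ucp3 was near 0 at 0.0900 and 0.0893 CPM.

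The iron and glutathione group was the lowest of the 6 groups by median log2 fold, at -0.47. All 4 members were below 0, against 43.6% of all genes, with Slc25a40 only just below, at -0.02. All 3 members compared were also below 0 in the carboxylate group and in that of membrane dynamics or no assigned substrate. Of these, Slc25a10 and Slc25a34 passed the floor only through the wild-type library. Among members of these groups under the floor, the carboxylate carrier Slc25a21 was above 0, and Slc25a43 and Slc25a45 were below 0. The mitoferrins Slc25a37 and Slc25a28 bring iron into the matrix for haem and iron-sulfur cluster assembly. Slc25a37 is the form of red cell precursors and Slc25a28 the form found in most tissues. Slc25a28 (chromosome 19, 43738292 to 43749371) stood at 21.0 CPM in wild type and 9.30 CPM in Setd2 KO, a ratio of 44.2% (39.7 to 49.2%). Slc25a37 (chromosome 14, 69859908 to 69903160) stood at 63.5 and 38.6 CPM, a ratio of 60.8% (57.6 to 64.3%). Both mitoferrin genes were thus lower, and their sum was 84.5 and 47.9 CPM, a ratio of 56.7% (54.0 to 59.5%). No window of either gene was shared with another place in the genome.

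Slc25a39, which imports glutathione, stood at 101 and 85.9 CPM, a ratio of 85.4% (82.1 to 88.8%). Its paralog Slc25a40 stood at 39.9 and 39.5 CPM, a ratio of 0.989 (0.931 to 1.05). Summed with Gm5066 that ratio was 0.972 (0.919 to 1.03).

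Slc25a28 had the lowest log2 fold of the 37 carriers with 0.5 CPM added, and its promoter is shown for that reason. By the plain ratio Slc25a34 and, under the floor, Slc25a47 were lower, and with 0.1 CPM added Slc25a34 (-1.35) lay below Slc25a28 (-1.17). RefSeq on GRCm38.p6 gives the 300 bases at chr19:43674832-43675131, minus strand, which run from before to just after the start of transcription. The search on both strands covered the E-box (CACGTG), the CCAAT box, the TATA box (TATAAA) and the GC box (GGGCGG). Matches stand in capitals, and the motifs do not overlap in this sequence.
Slc25a28: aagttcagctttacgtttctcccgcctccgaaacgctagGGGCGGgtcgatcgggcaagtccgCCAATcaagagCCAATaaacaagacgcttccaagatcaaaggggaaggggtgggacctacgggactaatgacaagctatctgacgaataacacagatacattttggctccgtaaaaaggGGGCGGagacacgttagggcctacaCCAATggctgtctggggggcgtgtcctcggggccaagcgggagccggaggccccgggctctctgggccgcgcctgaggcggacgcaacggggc

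This window held 3 CCAAT and 2 GC box matches, no TATA box or E-box match, and 24 CG dinucleotides. Among 43 promoters of the 34 members with an entry, 83.7% held a GC box match, against 35.7% of all 32851 promoters of the same length. CCAAT was present in 48.8% of member promoters and 37.4% of all, the TATA box letters in 4.65% and 13.6%, and those of the E-box in 18.6% and 7.15%. The median number of CG dinucleotides was 15 in member promoters and 7 in all. These are counts of letters over promoters of all kinds of genes, including those not expressed in stem cells.

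Carriers of amino acids, carnitine and S-adenosylmethionine were divided, with 6 of 10 below 0 and 4 above, and a median log2 fold of -0.04. The ornithine carrier Slc25a15 (chromosome 8, 23486023 to 23509093), part of the urea cycle and of polyamine supply, stood at 109 CPM in wild type and 68.8 CPM in Setd2 KO. The ratio was 63.0% (60.5 to 65.7%). Its paralog Slc25a2 was near the limit of reading at 0.415 and 0.293 CPM.

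The aspartate/glutamate carriers Slc25a12 and Slc25a13 serve the malate-aspartate shuttle, which moves reducing power into the matrix. Slc25a12 (chromosome 2, 71112352 to 71205611) stood at 32.5 and 21.5 CPM, a ratio of 66.1% (61.3 to 71.2%). Its log2 fold of -0.59 lay on the 1.5-fold threshold, and with 1 CPM added it no longer reached it. Slc25a13 stood at 125 and 111 CPM, a ratio of 88.9% (85.8 to 92.1%). Per kb, Slc25a13 was 9.02-fold above Slc25a12 in wild type and 12.1-fold above it in Setd2 KO.

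Slc25a20, which exchanges carnitine for its fatty acyl esters, lay higher in the Setd2 KO library, at 32.5 and 43.6 CPM, a ratio of 1.34 (1.26 to 1.42). The S-adenosylmethionine carrier Slc25a26 had a ratio of 1.23 (1.07 to 1.41), at 6.89 and 8.48 CPM. Slc25a44, a branched-chain amino acid carrier, stood at 35.4 and 38.3 CPM, and the glycine carrier Slc25a38, needed for haem synthesis, at 9.18 and 8.92 CPM. Of the glutamate carriers Slc25a22 stood at 16.2 and 13.4 CPM, a ratio of 0.829 (0.750 to 0.916), and Slc25a18 at only 0.410 and 0.390 CPM. Slc25a48 had a ratio of 1.42, at 0.835 and 1.19 CPM, and its interval of 0.958 to 2.12 held 1. It counts among the members above 0 but passed the floor only through the Setd2 KO library.

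The 3 carboxylate carriers compared had log2 folds of -0.33 to -0.11, none reaching 1.5-fold. The citrate carrier Slc25a1, which supplies the cytosol with citrate for lipid synthesis, stood at 29.6 and 27.3 CPM, a ratio of 0.922 (0.858 to 0.990). The oxoglutarate carrier Slc25a11 stood at 40.0 and 35.6 CPM, a ratio of 0.889 (0.835 to 0.945). The dicarboxylate carrier Slc25a10 was low in both libraries, at 1.26 and 0.904 CPM. Its interval of 0.483 to 1.05 held 1, and it passed the floor through the wild-type library.

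Among members with a role in membrane dynamics or with no assigned substrate, Slc25a34 (chromosome 4, 141174740 to 141179749) stood out at a low level. It stood at 1.68 CPM in wild type and 0.598 CPM in Setd2 KO, a ratio of 35.6% (22.9 to 53.9%). Its log2 fold was -0.99, and it passed the floor of 1 CPM through the wild-type library. Slc25a46, an outer membrane member involved in mitochondrial shape, stood at 63.6 and 58.2 CPM, a ratio of 0.915 (0.871 to 0.960). Slc25a35 stood at 4.17 and 3.23 CPM, but 31.3% of its exon bases overlap Rangrf on the opposite strand, and the sources used here do not say whether counting used strand. Exons of 9 more members overlap another gene on the opposite strand, over at most 14.9% of their bases.

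**Figure D3:**
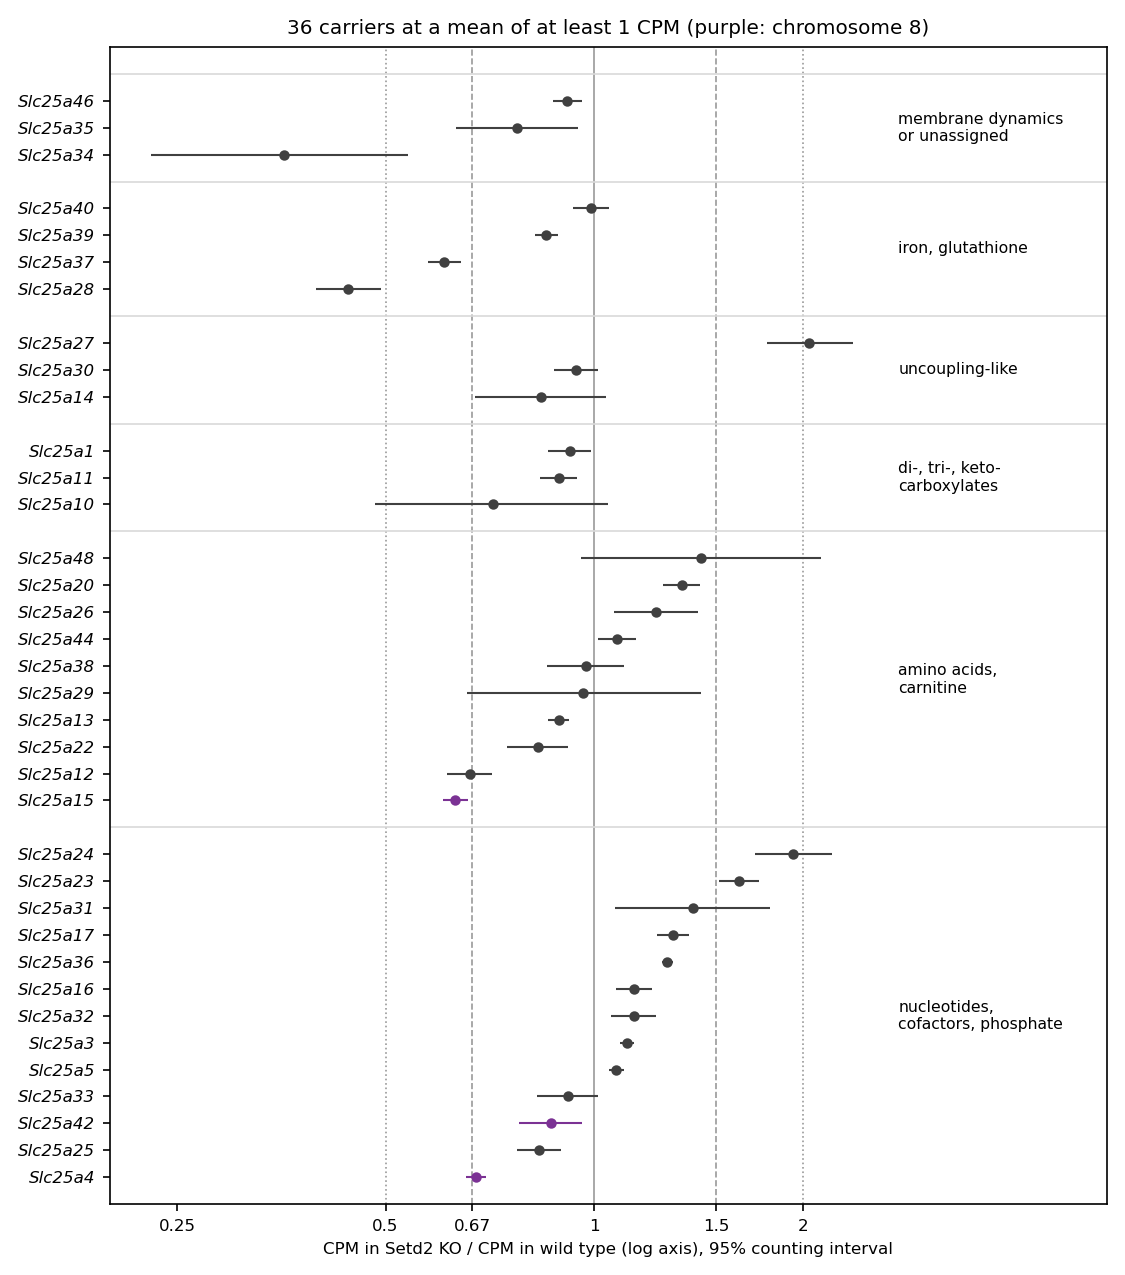
Ratio of CPM in the Setd2 KO library to CPM in the wild-type library (x axis, log scale) for 36 of the 37 carriers compared, grouped by what they carry. Bars are 95% counting intervals, purple marks chromosome 8, and dashed and dotted lines mark 1.5-fold and 2-fold. All 4 iron and glutathione carriers lie left of 1, with the interval of Slc25a40 holding 1. All carriers drawn in the carboxylate and the membrane dynamics or unassigned groups also lie left of 1. Of these, Slc25a10 and Slc25a34 passed the floor only through the wild-type library. Slc25a23, Slc25a24 and Slc25a27 lie right of 1.5.

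Chromosome 8 held 3 carriers, Slc25a4, Slc25a15 and Slc25a42, and all 3 were lower in the Setd2 KO library, where the chromosome's genes were lower in general. Its 719 genes had a median log2 fold of -0.35 and quartiles of -0.59 and -0.12, against medians of 0.00 to 0.13 on the other autosomes. The libraries also differed on chromosome Y, where the 5 genes compared were all higher in Setd2 KO, with a median log2 fold of 6.20. No carrier lies there, and the part of this difference between the lines in the carrier folds was not tested. Relative to the median of chromosome 8, Slc25a4 lay at -0.22, Slc25a15 at -0.32 and Slc25a42 at 0.15. Slc25a15 was thus below the lower quartile of chromosome 8, and Slc25a4 and Slc25a42 were between its quartiles. Without chromosomes 8 and Y, 34 carriers remained, with a median log2 fold of -0.04 against 0.07 for all genes.

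The mitoferrin genes, Slc25a12 and the 3 higher carriers lie on other chromosomes, whose medians were close to 0. Slc25a28 lay 1.15 below the median of chromosome 19 and Slc25a37 0.75 below that of chromosome 14, on the log2 scale. Slc25a27 and Slc25a23 lay 0.92 and 0.63 above the median of chromosome 17, and Slc25a24 0.79 above that of chromosome 3. The X-linked Slc25a5, Slc25a14 and Slc25a43 did not lie above the X chromosome's median of 0.17. Slc25a43, the neighbour of Slc25a5, was under the floor at 0.946 and 0.884 CPM.

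**Figure D4:**
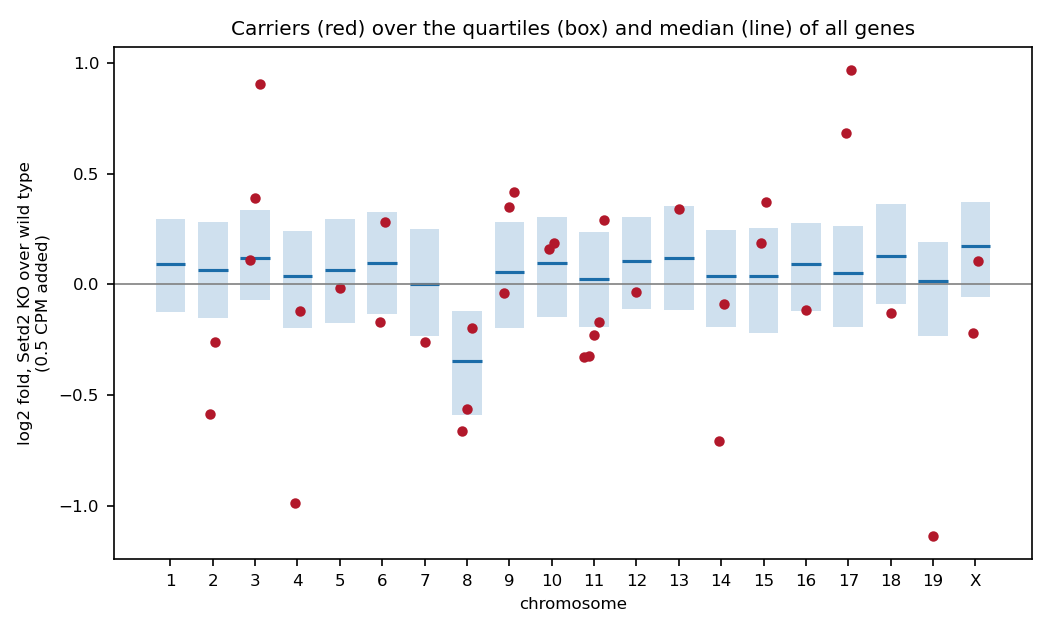
Log2 fold of Setd2 KO over wild type (y axis, 0.5 CPM added) by chromosome, with all genes compared as a box of the quartiles and a line at the median, and the 37 carriers as red points. Chromosome 8 is the one box that lies wholly below 0, and its 3 carriers are at or near it.

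The partners of the carriers were read from lists of genes in the same pathways, with the share of all genes at least 1.5-fold apart, 14.2%, as the background. For the family itself that share was 21.6%, or 8 of 37. Family relatives named outside Slc25a had 0 of 5 members at least 1.5-fold apart, with Mcart1 at 47.9 and 58.5 CPM and Mtch2 at 72.7 and 67.4 CPM. The list for import of carriers, made of outer membrane Tomm genes, small Timm chaperones and the inner membrane translocase gene Timm22, had 0 of 13, with a median log2 fold of 0.20. The receptor gene Tomm70a stood at 502 and 582 CPM, and Tomm40, the pore of the outer membrane, at 107 and 80.6 CPM. The outer membrane channels had 0 of 3, with Vdac1 at 451 and 503 CPM.

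Other inner membrane transporters had 0 of 11, with a median of -0.08. Of these the ABC transporter gene Abcb10, on chromosome 8, stood at 58.0 and 43.4 CPM and the serine carrier gene Sfxn1 at 142 and 117 CPM. Iron-sulfur and haem synthesis genes, the users of mitoferrin iron, had 1 of 13 at least 1.5-fold lower and a median of 0.00. The lower gene was Ppox, an enzyme late in haem synthesis, at a ratio of 64.5% (57.6 to 72.1%), while Alas1, the first enzyme of that path, stood at 32.6 and 41.3 CPM.

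The citric acid cycle list had 0 of 18, with a median of 0.20 and 14 members above 0. Fh1, the fumarase gene, had the highest fold of the list, at 80.1 and 110 CPM. In the malate-aspartate shuttle list, 0 of 4 members were 1.5-fold apart. Mdh1 stood at 99.6 and 128 CPM, and Got2, on chromosome 8 and with 85% of its windows shared, at 142 and 101 CPM. The users of exported citrate had 2 of 6 at least 1.5-fold lower, with a median of -0.22, 4 members below 0 and 2 above. The fatty acid synthase gene Fasn stood at 1033 and 621 CPM, a ratio of 60.1%, and Acaca at 132 and 84.5 CPM, with 70% of its windows shared. Acly, which splits citrate in the cytosol, stood at 856 and 686 CPM.

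The folate list had 1 of 10 at least 1.5-fold higher and 1 lower. The lower gene was Shmt2, the serine-to-glycine enzyme of the matrix, at 89.8 and 59.4 CPM. The higher was Mthfd2l, a matrix folate enzyme gene, at 2.33 and 13.7 CPM, for which 55% of windows were shared. The carnitine shuttle list had 0 of 4, with a median of 0.09 and 3 members above 0. Cpt1a, the outer membrane acyltransferase, was the member below 0, at 160 and 122 CPM.

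Feeder fibroblasts are the other cell type these cultures could hold, and in bulk RNA fewer cells of a type and less RNA per cell cannot be told apart. Of 27 fibroblast markers in the table, 23 were compared, with 16 below 0, 7 above 0 and a median log2 fold of -0.22. At least 1.5-fold apart were 43.5% of them, 7 lower and 3 higher, against 14.2% of all genes. Their summed level was 3619 CPM in wild type and 3671 CPM in Setd2 KO, most of it Fn1 (2666 and 2957 CPM). The sum thus mainly follows Fn1. Thbs1, the next by CPM, was lower in Setd2 KO, at 368 and 210 CPM. The 2 markers at least 2-fold lower were Ccl2, at 6.48 and 2.41 CPM, and Prrx1, at 5.97 and 2.70 CPM. The collagen gene Col1a1 stood at 45.0 and 31.3 CPM and Col1a2 at 14.4 and 9.08 CPM. The 3 higher markers were Cnn1, Tagln and Pdgfrb, with ratios of 169%, 156% and 159%. Lum, under the floor, had 4 read equivalents in wild type and was listed at 0 in Setd2 KO. The part of these cells in the carrier differences was not tested.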

How the data were processed

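RNA of 1 wild type and 1 Setd2 KO mESC line was sequenced. CASAVA 1.6.0, TopHat 1.0.13 and mm9 were used by the authors, per the submitters' processing notes, which give no roles. Per the file headers the deposited values are RPKM, but they behave as log2 values: log2(x + 1), with x in steps of 1 base of 76 for 85.9% (wild type) and 85.7% (Setd2 KO) of values of x below 200, within 0.05 of a base. They were not scaled by depth or length, and the sources used here do not say how the log2 step was made.

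Values were turned back to read equivalents, scaled to 1000000 per library and reduced to 17817 symbols by keeping the higher row of a repeated one. Genes averaging 1 CPM or more were compared by log2((Setd2 KO + 0.5)/(wild type + 0.5)), with thresholds of 2-fold and 1.5-fold in place of a test. Ratios without the added 0.5 carry exact conditional binomial intervals (scipy 1.17.1). The binomial and fold procedure was tested on simulated counts that varied by counting error alone. That test does not bear on differences between lines or cultures. Exon lengths are unions over GENCODE vM1 transcripts on NCBIM37. Up to 20 windows of 76 bases per gene were aligned with minimap2 2.31, and a window counted as shared when it also matched elsewhere with up to 2 mismatches or did not map back to its origin.

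The members and lists were chosen with earlier results of these data known. Named were carriers at least 1.5-fold apart, the 8 highest and 8 lowest folds, the 8 most abundant per kb and paralog pairs. All carriers on chromosomes 8 and X were named too. The plan was to name up to 4 genes of each other list with the largest folds. It was not kept in every list, so a named gene can have a smaller fold than an unnamed one. Other list genes were chosen after their values were seen. Values of 1 carrier and 1 other list gene, which enter the counts, sums and medians, are not reported here. Protein sequences were not used here.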

Additional observations from a re-analysis of the deposited data

How the results depend on the processing

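No paired analysis was possible because neither genotype has more than 1 library, which also means that leaving a library out leaves nothing to compare. The 2-fold count of higher carriers, 0 as reported, was 1 with a pseudocount of 0.1 and 3 at a threshold of 1.5-fold. The count of lower carriers, 1 as reported, was 2 with a pseudocount of 0.1, 2 with the median log2 ratio set to 0, 2 with the trimmed mean of log ratios and 2 with the same upper quartile; the gene that joined was Slc25a34, at -1.35 with a pseudocount of 0.1 and -1.01 to -1.02 after rescaling. The lower count was 5 at 1.5-fold and 0 at 3-fold. The 1.5-fold counts, recomputed as alternatives chosen after seeing the data, ran from 2 to 3 for higher and from 4 to 6 for lower carriers. Slc25a4 joined the lower ones under the 3 rescalings, which removed shifts of 0.04 to 0.05 on the log2 scale, and Slc25a12 left them with a pseudocount of 1. The median log2 fold of the carriers stayed between -0.14 and -0.04. None of 220 recomputed carrier folds changed sign, but none could have. A pseudocount added to both values cannot change a sign. The rescalings lowered folds by less than the smallest positive one, 0.11 for Slc25a5. The family share was 0.163% and 0.155% (wild type, Setd2 KO) without Slc25a36, the most abundant member, and 0.179% and 0.188% without chromosomes 8 and Y. The median level per kb was 5.38 and 5.69 CPM by exon union and 7.97 and 6.51 CPM by the longest transcript. With 1 library per genotype, differences between lines, passages and cultures cannot be told apart from that between genotypes.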
